A study of Mus musculus with 2 samples.

Results

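The genes described here are 8 transcription factor genes of endoderm: the forkhead genes Foxa1, Foxa2, Foxa3 and Foxq1, the nuclear receptor gene Hnf4a, the homeobox genes Hhex and Otx2, and Prdm1, which encodes a PR domain zinc finger repressor. They were taken by exact symbol from a table of 26127 gene rows, and all 8 were found. The table holds 2 libraries of total RNA from PS10, a female extraembryonic endoderm stem (XEN) cell line of ICR strain, which is 1 line. One culture received an oligonucleotide of locked nucleic acid (LNA) that targets Gata6-AS, an antisense noncoding RNA beside the endoderm factor gene Gata6, and the other a control LNA, both with Lipofectamine RNAiMax. With 1 library per group, nothing below has a replicate check or a p-value of its own, and each difference compares these 2 libraries, called control and depleted here. The sample titles name the reagents siRNA and the treatment protocol LNA, the term used here.

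Foxa proteins are pioneer factors: their winged-helix domain binds sites in closed chromatin and opens them for other factors. Hnf4a, with Foxa and Hnf1 proteins, drives the apolipoprotein and carrier protein genes of visceral endoderm and liver. Hhex and Otx2 act in the anterior visceral endoderm, where Otx2 is needed for expression of the Wnt antagonist Dkk1, and Prdm1 is also expressed in visceral endoderm. Foxq1 is a forkhead factor outside the Foxa group, best known for hair differentiation in the mouse and for repression of E-cadherin in human carcinoma cells.

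RPKM scales reads to gene length in kilobases and to 1000000 reads of the library, so levels of different genes can be compared within a library. Equal steps in the values gave 1.04e+08 reads for the control and 1.23e+08 for the depleted library. From these, the least number of reads behind a value was found, and with it an exact 95% interval that covers counting error only. Of 16 XEN and primitive endoderm markers, 14 reached a mean of 1 RPKM, and 13 of these 14 were lower in depleted cells. Over all 10868 genes at that mean, 58.0% were higher in depleted cells. On log2(RPKM + 1), 2 of the 14 were at least 1.5-fold lower, beside 1.95% of those genes, and none was 1.5-fold higher. The summed level of the 16 markers was 6330 RPKM in control cells against 4747 RPKM in depleted cells. The collagen genes Col4a1 and Col4a2, defining products of these cells, stayed below a mean of 1 RPKM. They stood at 0.0878 and 0.531 RPKM in the control, and values near 0 elsewhere are given as listed. Marker lists of ES cells, trophoblast, feeder fibroblasts, definitive endoderm and gut, neural ectoderm and hepatocytes had 3, 1, 2, 1, 2 and 2 members at that mean. Sox2, Alb, T and Thy1, picked after their values were seen, were listed at 0 in both libraries. Nanog, of the ES list, stood at 4.61 and 5.07 RPKM. All 3 measured genes of that list were higher in depleted cells. Of these, 1 was at least 2-fold higher on log2(RPKM + 1), beside 0.331% of all genes at that mean. The summed trophoblast markers went from 1.79 to 4.55 RPKM and those of ES cells from 9.33 to 13.3 RPKM. Sums were 6.10 and 6.91 RPKM for fibroblasts, 4.23 and 5.43 RPKM for neural ectoderm and 11.7 and 14.5 RPKM for hepatocytes. Gut markers summed to 2.05 and 2.01 RPKM. The part of any of these lists in the results below was not tested. The targeted RNA, listed as 1010001N08Rik, stood at 57.8% of control (50.5% to 66.1%), and Gata6 at 68.0% (66.8% to 69.3%). The antisense row and Gata6 overlap at their ends, and whether counting used strand is not stated by the sources used here.

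The stretches upstream of 4 start sites are shown for a pair of close relatives that differ most in level, Foxa1 and Foxa2, and for Hnf4a, whose single row has a span that takes in an upstream and a downstream start. Each is the 250 bases before a RefSeq start in GRCm38.p6, 5′ to 3′ on the strand of the gene; the expression table itself uses mm9. Capitals mark matches, on either strand, to a forkhead motif (TGTTTAC or TATTTAC or TGTTTGC or TATTTGC), to a GATA motif (AGATAA or TGATAA or AGATAG or TGATAG) or to an HNF1 core (GTTAAT).
Foxa1, chr12:57546112-57546361, minus strand: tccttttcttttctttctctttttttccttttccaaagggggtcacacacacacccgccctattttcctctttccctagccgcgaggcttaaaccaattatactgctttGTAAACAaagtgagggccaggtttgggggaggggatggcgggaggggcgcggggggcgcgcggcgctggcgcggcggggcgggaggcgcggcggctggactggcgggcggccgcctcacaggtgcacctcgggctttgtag
Foxa2, chr2:148045465-148045714, minus strand, the start farthest downstream of 3: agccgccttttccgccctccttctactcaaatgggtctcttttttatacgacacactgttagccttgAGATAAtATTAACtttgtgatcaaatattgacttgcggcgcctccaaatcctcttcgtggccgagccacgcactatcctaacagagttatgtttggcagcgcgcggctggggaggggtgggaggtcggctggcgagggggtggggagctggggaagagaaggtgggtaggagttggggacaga
Hnf4a upstream start, chr2:163506607-163506856, plus strand: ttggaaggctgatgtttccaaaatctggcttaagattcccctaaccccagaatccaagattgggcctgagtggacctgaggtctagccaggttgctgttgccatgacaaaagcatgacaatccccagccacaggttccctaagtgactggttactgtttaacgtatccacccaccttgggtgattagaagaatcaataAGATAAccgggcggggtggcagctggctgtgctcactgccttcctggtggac
Hnf4a downstream start, chr2:163546905-163547154, plus strand: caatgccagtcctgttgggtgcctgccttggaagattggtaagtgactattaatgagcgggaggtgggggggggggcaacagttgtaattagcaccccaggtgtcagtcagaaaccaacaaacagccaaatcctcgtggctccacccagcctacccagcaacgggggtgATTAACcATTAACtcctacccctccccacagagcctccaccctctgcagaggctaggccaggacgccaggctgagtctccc
The Foxa1 stretch holds 1 forkhead match, the Foxa2 stretch 1 GATA and 1 HNF1 match next to each other, the upstream Hnf4a start 1 GATA match and the downstream start 2 HNF1 matches. The other 2 windows of Foxa2 hold no match to any of these motifs. No printed match overlaps another. Over 32817 such windows of all genes, 11.9% held a forkhead match, 26.6% a GATA match and 6.44% an HNF1 match. The table gave 13 windows for 7 members, of which 3 held a forkhead, 4 a GATA and 2 an HNF1 match. No window was given for Foxq1. A match is only a run of letters, and nothing here measured binding.

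Foxq1 was the member that differed most. It measured 21.97 RPKM in control cells against 43.6 RPKM in depleted cells, from 6372 and 15013 reads over its 2801 bp. The depleted library thus held 198% of the control level, and the exact 95% interval (Clopper-Pearson) ran from 193% to 204%. On the log2(RPKM + 1) scale the difference was 0.96, the 48th most positive of 10868 genes whose mean reached 1 RPKM, so that 0.432% of them had a higher difference. In the authors' deposited table Foxq1 was the 1 listed member, with a log2 difference of 0.997 (p = 0.000702); what test gave that p is not given in the sources used. That table lists 2099 genes, beside 26127 rows of the RPKM table, so 1 listed member of 8 says little about the group. In RNA of whole cultures, more cells with Foxq1 RNA and more of it per cell cannot be told apart, here and below.

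Foxa2 had the highest level of the Foxa genes in these XEN cells, and it was close in both libraries. It measured 35.1 RPKM in control cells against 35.9 RPKM in depleted cells, from at least 8620 and 10471 reads. That is 102% of control (99.4% to 105%), so the interval includes no difference and, within counting error, leaves no room for a change of 1.5-fold. The difference was 0.03, close to the median of 0.05 over all genes tested.

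The other Foxa genes were scarcely represented. Foxa3, a factor of gut endoderm and liver, measured 0.578 RPKM in control cells against 0.574 RPKM in depleted cells, from at least 122 and 144 reads. This is 99.4% of control, with a wide interval of 77.6% to 128%. Foxa1 was listed at 0 in both libraries. Over its longest coding transcript of 3191 bp in GENCODE, 3 reads would be 0.00908 RPKM in control cells and 0.00765 RPKM in depleted cells, the limits that a count of 0 allows if the row was counted in full. The longest identical run between transcripts of Foxa1 and Foxa2 was 38 bp and between Foxa2 and Foxa3 20 bp. The handling of reads that map to several places is not stated by the sources used here.

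Hnf4a was modestly higher in the depleted library. It measured 3.41 RPKM in control cells against 4.43 RPKM in depleted cells, from at least 1770 and 2735 reads, or 130% of control (123% to 138%). The difference of 0.30 is more than counting error but below the 1.5-fold rule, and 15.9% of the genes tested had a higher one. An opposite-strand row, 0610008F07Rik, which RefSeq calls Hnf4aos, runs across the start of the gene and shares 34913 bp of the span of Hnf4a but stood at only 0.0202 and 0.00853 RPKM.

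Of the homeobox genes, Hhex was just above the filter and Otx2 far below it. Hhex measured 1.35 RPKM in control cells against 1.37 RPKM in depleted cells, from at least 536 and 647 reads; this is 102% of control (90.5% to 114%). Otx2, a homeobox factor shared by anterior visceral endoderm, epiblast and forebrain, measured 0.131 RPKM in control cells against 0.110 RPKM in depleted cells. Its interval of 54.7% to 130% of control, from at least 46 reads in each library, takes in a level 1.5-fold lower but not one 1.5-fold higher. Prdm1 was listed at 0 in the control and at 0.00148 RPKM in the depleted library, which is at least 1 read, and no fold is given.

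**Figure D1:**
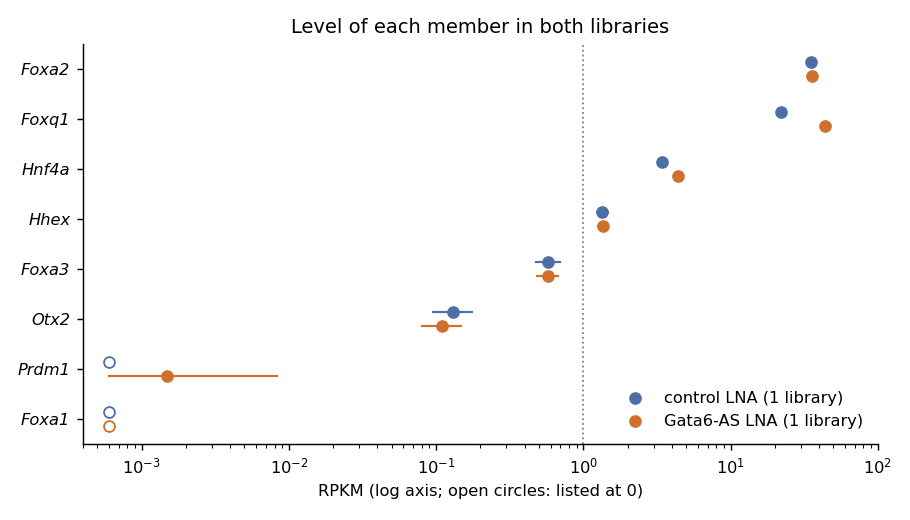
RPKM (log axis) of the 8 members in the control and the depleted library, 1 library each, with lines for exact 95% Poisson counting intervals, cut at the left for Prdm1; open circles at the left edge are values listed at 0. Foxq1 is at 21.97 and 43.6 RPKM and passes Foxa2, at 35.1 and 35.9 RPKM, while the points of Foxa2, Hhex and Foxa3 nearly coincide.

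The order of the levels differed at its top. In the control it ran Foxa2, Foxq1, Hnf4a, Hhex, Foxa3, Otx2, with Prdm1 and Foxa1 at 0. In the depleted library Foxq1 stood above Foxa2, and the ratio of Foxq1 to Foxa2 was 0.625 in control cells and 1.21 in depleted cells. Counting intervals of neighbours in this order did not overlap among the first 6 genes, but nothing is known of the spread between cultures. Foxa2 had 11.6% of the genes tested above it in control cells and 11.5% in depleted cells, whereas Foxq1 had 19.4% and 9.06%. Hnf4a had 74.4% and 68.4% of them above it.

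By the size rules, 1 of the 4 members at a mean of at least 1 RPKM, Foxq1, was at least 1.5-fold higher on the log2(RPKM + 1) scale and none was 1.5-fold lower. Over the 10868 genes tested, 3.42% passed 1.5-fold upward, 1.95% downward and 5.37% either way. No member was 2-fold higher or lower, against 0.331% and 0.451% of all genes, or 0.782% either way. With so few members, 1 called gene carries no weight as a statement about the group. With the median difference of all genes set to 0, the 1.5-fold calls over all genes changed from 372 higher and 212 lower to 271 higher and 262 lower, and Foxq1 stayed above the rule at 0.91.

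**Figure D2:**
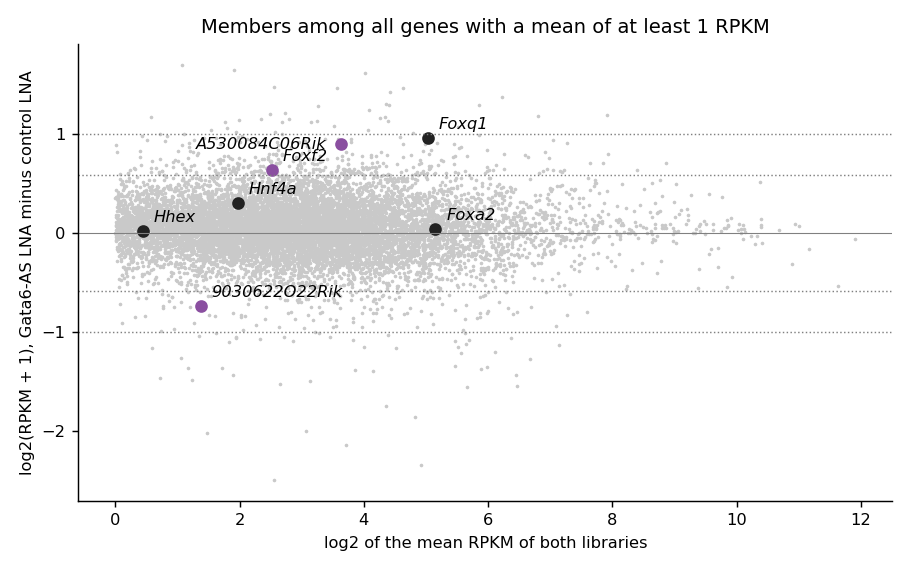
Difference of log2(RPKM + 1), depleted minus control, against the log2 mean RPKM for all 10868 genes tested (grey); black points are members, purple points neighbouring or clustered genes, and dotted lines mark 1.5-fold and 2-fold. Foxq1 lies at 0.96 near the upper edge of genes of its level, while Foxa2 (0.03) and Hhex (0.01) lie within the bulk.

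A row on the opposite strand overlaps the start of Foxq1. In mm9 Foxq1 occupies chr13:31650039-31652839 on the plus strand, and the row A530084C06Rik runs on the minus strand from 31648003 to 31651202, across its start. It measured 8.34 RPKM in control cells against 16.4 RPKM in depleted cells, 196% of control (188% to 205%). The rows share 1164 bp. Even coverage of Foxq1 would place 2648 control reads and 6239 depleted reads in that stretch, and A530084C06Rik held 2764 and 6435 reads, 1.04 and 1.03 times as many. Reads of the gene and of the antisense row therefore cannot be told apart here, and they are not counted as separate results. The other rows within 10 kb, Gm11377 and 1700018A04Rik, were at or under 0.0419 RPKM in both libraries. In the authors' deposited table the log2 difference of the antisense row was 0.92 (p = 0.00143).

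Foxf2, the next forkhead gene of the cluster on chromosome 13, lies 64.8 kb from Foxq1 and has roles in mesenchyme of gut and palate. It measured 4.28 RPKM in control cells against 7.19 RPKM in depleted cells, 168% of control (156% to 181%), a difference of 0.63. In the authors' deposited table its log2 difference was 0.64 (p = 0.0388). The 1.5-fold call of Foxf2 ended when the median of all genes was set to 0, at 0.58. Foxc1, 246 kb from Foxq1, was on the other side, at 0.528 RPKM in control cells against 0.342 RPKM in depleted cells, 64.9% of control (52.8% to 79.7%). The mean of Foxc1, 0.435 RPKM, is below the filter, and its difference was -0.19. In the authors' deposited table its log2 difference was -0.76, with a larger p than that of Foxf2. The cluster thus held values both above and below control, the lower one from a gene below the filter.

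Next to Foxa2, a noncoding row was lower while the gene itself was nearly level. Foxa2 lies at chr2:147868613-147872705 on the minus strand of mm9, and the row 9030622O22Rik begins 2673 bp beyond its end on the same strand. RefSeq lists that row as a long noncoding RNA. It measured 3.49 RPKM in control cells against 1.68 RPKM in depleted cells, from at least 304 and 174 reads, which is 48.2% of control (39.8% to 58.3%). Its difference was -0.74, and 98.9% of the genes tested had a higher one. In the authors' deposited table its log2 difference was -1.17 (p = 0.00104). The remaining rows within 10 kb of a member differed little where they were expressed: Irf2bp1 and Sympk beside Foxa3 were at 97.2% and 99.0% of control, and R3hdml beside Hnf4a at 111% (90.2% to 138%). No row lay within 10 kb of Foxa1, Hhex, Otx2 or Prdm1.

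**Figure D3:**
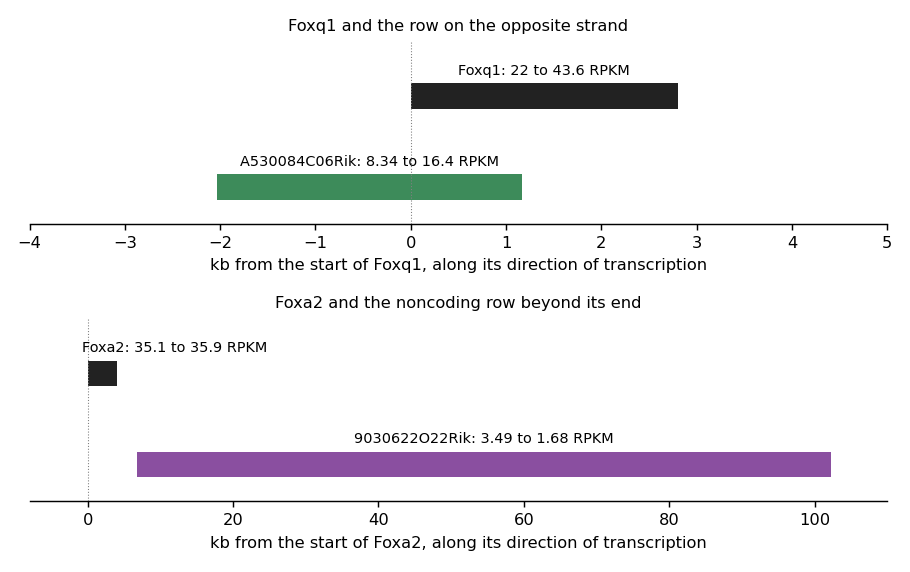
Rows of the table at Foxq1 (top) and Foxa2 (bottom), drawn to scale in kb from the start of each gene along its direction of transcription, with the RPKM of the control and then of the depleted library above each bar; black is the member, purple a row on its strand and green a row on the opposite strand. A530084C06Rik overlaps the start of Foxq1 and is higher with it, while 9030622O22Rik lies beyond the end of Foxa2 and is lower.

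**Figure D4:**
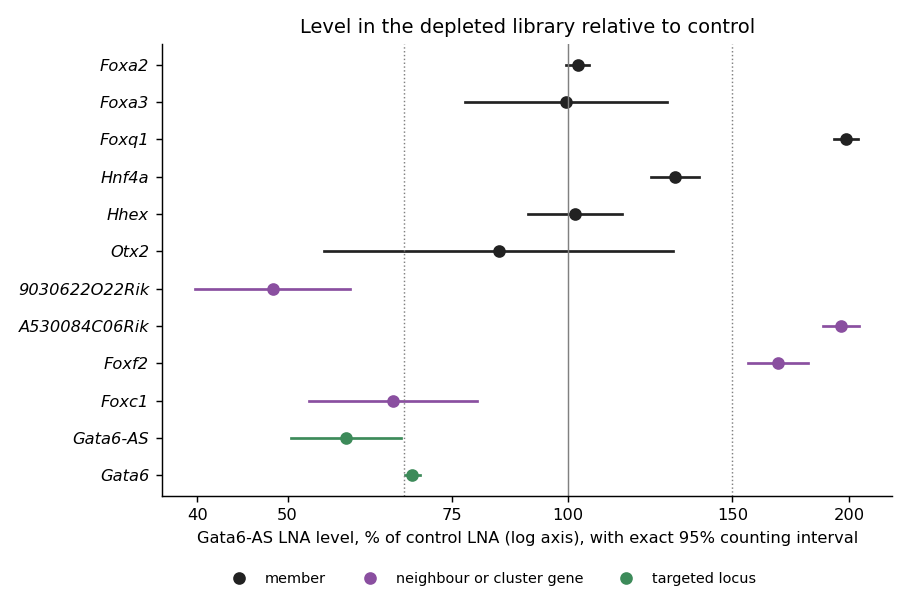
Level in the depleted library as a percentage of control (log axis) with exact 95% intervals of counting error, for 6 members (black), neighbouring or clustered rows (purple) and the targeted locus (green); dotted lines mark 1.5-fold. Foxq1 (198%), A530084C06Rik (196%) and Foxf2 (168%) lie to the right, and 9030622O22Rik (48.2%) lies farthest to the left.

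Among all 42 forkhead genes of the table, Foxa2 and Foxq1 held the first and second level in control cells and swapped places in depleted cells. Foxo3, a target of AKT signalling, came next in both, at 18.0 and 16.8 RPKM. The summed level of the family was 171 RPKM in control cells against 192 RPKM in depleted cells, a gain of 21.4 RPKM, next to a gain of 21.6 RPKM for Foxq1 alone. Foxq1 made up 12.9% of the summed RPKM in control cells and 22.7% in depleted cells, and Foxa2 20.5% and 18.7%. Of the 16 forkhead genes at a mean of 1 RPKM, Foxq1 and Foxf2 passed 1.5-fold upward and none downward. Over all genes tested, 3.42% passed upward and 1.95% downward. The median difference of the 16 was 0.04. In the PR domain family, 6 of 14 genes were measured and none passed 1.5-fold on the log2(RPKM + 1) scale. Prdm10, named after its value was seen, stood at 0.80 and 1.32 RPKM, 165% of control (148% to 184%). It reached a mean of 1 RPKM only through the depleted library, so it had to differ to be counted. With a pseudocount of 0.1 RPKM it passed 1.5-fold. Prdm2 stood at 96.5% and Prdm4 at 105% of control, and the germ cell factor gene Prdm14 was listed at 0 in both libraries.

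Partners of the Foxa proteins and Hnf4a showed no member past 1.5-fold on the log2(RPKM + 1) scale. Of 19 listed genes 6 were measured, 3 above 0 and 3 below, with a median of -0.01. Over all genes tested, 58.0% were above 0 and 5.37% passed 1.5-fold either way, the shares to set beside each list here and below. Smad4, the common mediator of TGF-beta signals, was at 97.6% of control. The nuclear receptor gene Nr2f6 was at 150% (0.46) and the Wnt effector gene Tcf7l2 at 67.5% (-0.52); neither passed it. Nr2f2, another nuclear receptor gene, stood at 1.40 and 0.853 RPKM, 60.8% of control (54.2% to 68.3%). It reached a mean of 1 RPKM only through the control, so it had to differ to be counted. Nr2f2 passed 1.5-fold with a pseudocount of 0.1 RPKM and with scaling to equal sums, which also shrinks the pseudocount beside the values. These 3 genes were named after their values were seen.

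Target genes of Hnf4a and Foxa in visceral endoderm and liver had no member past 1.5-fold. Of 30 listed genes 7 were measured, 6 of them below 0, with a median of -0.18 beside 0.05 over all genes tested and -0.39 over the 14 measured XEN markers, which share Cubn with this list. With no filter on level the median of the 30 genes was 0, which says little, since the pseudocount holds the 23 genes below the filter near 0. The retinol carrier gene Rbp4 measured 77.5 RPKM in control cells against 62.7 RPKM in depleted cells, 80.8% of control (78.6% to 83.1%). Apoe stood at 173 and 156 RPKM, 90.3% of control (87.1% to 93.5%). The fetal carrier gene Afp was near 0 in both libraries and Alb was listed at 0.

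Genes that act with Otx2 and Hhex in the anterior visceral endoderm had 7 of 17 members measured, 4 above 0 and 3 below. Dkk1, a target of Otx2, measured 11.1 RPKM in control cells against 31.5 RPKM in depleted cells, 283% of control (272% to 296%), a difference of 1.42. It was the 1 gene of this list past 1.5-fold, beside 5.37% of all genes tested either way. Otx2 itself was at 0.131 and 0.110 RPKM. Cer1, a secreted Nodal antagonist, was at 88.6% of control (74.8% to 105%), and Gsc and Nodal were listed at 0 in both libraries. In the list of Groucho and other corepressors, 13 of 14 genes were measured, 8 above 0 and 5 below, and none passed 1.5-fold. Among them Aes was at 108% and the histone methyltransferase gene Ehmt2 at 130% of control. The Groucho gene Tle3, named after its value was seen, had the most negative difference there, -0.58, and stood at 65.0% of control in RPKM. It passed 1.5-fold at -0.63 once the median of all genes was set to 0, and also with pseudocounts of 0.1 and 0.5 RPKM. Tle3 did so too with scaling to equal sums, which makes the pseudocount smaller beside the values.

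A list of junction and mesenchymal genes, chosen to set beside Foxq1, had 13 of 20 members measured, 8 above 0 and 5 below. Whether Foxq1 acts on any of them was not tested. The median of the measured genes was 0.24, but 0.11 with the libraries scaled to equal sums, which also admits lower genes. With no filter on level it was -0.00, but the pseudocount holds the 7 genes below the filter near 0. That median therefore says little. Beside 3.42% of all genes higher and 1.95% lower by that size, 3 of the 13 were at least 1.5-fold higher and 1 lower. The higher ones were the tight junction genes Cldn6, at 3.59 and 8.30 RPKM (231% of control, 201% to 266%), and Cgn, at 6.27 and 11.1 RPKM (177%), and the intermediate filament gene Vim, at 117 and 182 RPKM (156%). The repressor gene Snai1 was lower, at 91.8 and 35.3 RPKM (38.5%, 37.4% to 39.6%). Cdh1, the E-cadherin gene, was at 0.526 and 0.485 RPKM, below the filter in both libraries. AKT and FoxO genes had 9 of 12 members measured, 3 above 0 and 6 below, with a median of -0.15 and none past 1.5-fold. Ywhaz was at 87.4% and Akt1 at 120% of control.

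**Figure D5:**
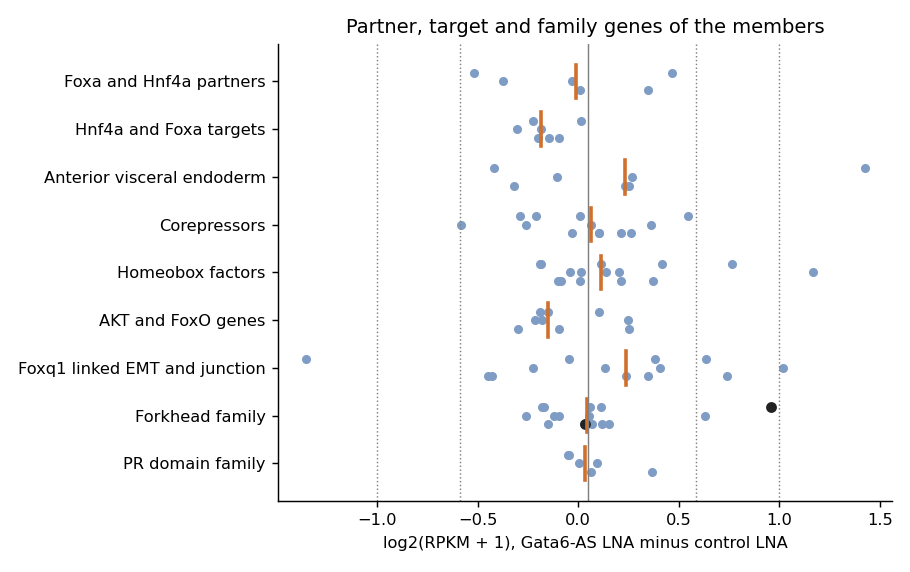
Difference of log2(RPKM + 1), depleted minus control, of each measured gene (blue; members in black) in 7 lists and 2 families, with the list median in orange, the median of all genes tested as a grey line and dotted lines at 1.5-fold and 2-fold. Most genes lie within the inner dotted lines, and Dkk1 (1.42), Snai1 (-1.35) and Foxq1 (0.96) lie far out in their rows.

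The 3 genes closest to Foxq1 in level and difference over both libraries were Srm, which encodes spermidine synthase, at 21.9 and 41.4 RPKM, the X-linked gene Xlr3c, at 24.0 and 42.4 RPKM, and Ezr, which encodes the membrane linker ezrin, at 21.97 and 39.7 RPKM. Their distances from Foxq1 on log2(RPKM + 1) were 0.07, 0.13 and 0.13. With 2 libraries such likeness describes a pair of values only.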

How the data were processed

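RNA-seq of 1 control LNA and 1 Gata6-AS LNA library was used. The authors' deposited RPKM table, named so per the file headers, holds 26127 rows. TopHat and mm9 are named in the submitters' processing notes. The counting tool, annotation, strand and treatment of multiply mapped reads are not stated by the sources used here. The authors also deposited log2 values, with their difference and a p-value, for 2099 genes under a p limit, per the file headers.

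Differences are log2(RPKM + 1), depleted minus control, which understates the change of low genes. Genes were measured from a mean of 1 RPKM upward, and size rules were 1.5-fold and 2-fold. No test was made. Small RNA rows were left out, and for a symbol on several rows the row with the highest mean was used.

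The value of 1 read came from 799 control and 850 depleted rows with a span under 3000 bp whose RPKM times length was a whole number of steps. The least reads behind a gene were the smallest whole numbers giving both RPKM values at 1 length, within 3e-07 of the count plus 0.0002 reads. Where the gene's span itself gave whole reads, it was used. In the control library, 104 reads make 1 RPKM per kilobase (exact 95% Poisson interval 85.0 to 126). Intervals cover counting error only, since reads are not independent molecules. The procedure was tested on simulated data. SciPy 1.17.1 and pandas 2.3.3 in Python 3.11.15 were used.

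Members and lists were chosen with earlier results of these data known. Named were all members, rows within 10 kb, and in each list up to 4 genes past 1.5-fold with the largest differences, or else the 2 with the highest mean. Also named were the 3 genes nearest to Foxq1 and the targeted locus. Members of marker lists, Foxc1, Foxo3, Prdm14, Afp, Alb, Cdh1, Cer1, Gsc, Nodal, Nr2f2, Nr2f6, Prdm10, Tcf7l2, Tle3, Cdx2, Prox1 and Pitx1 were chosen after their values were seen. A gene that this rule names is not reported here. Row names were matched to RefSeq symbols and synonyms of GRCm38.p6. Alternatives were pseudocounts of 0.1 and 0.5 RPKM, the median set to 0, no filter, a mean of at least 5 RPKM and the authors' log2 difference. Libraries were also scaled to 1000000 summed RPKM, with the pseudocount and filter kept at 1.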

Additional observations from a re-analysis of the deposited data

How the results depend on the processing

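Under pseudocounts of 0.1 and 0.5 RPKM, the median set to 0, scaling to equal sums, no filter and a mean of at least 5 RPKM, the counts of members past 1.5-fold and 2-fold were the same as reported: 1 higher and 0 lower at 1.5-fold, 0 at 2-fold. The difference of Foxq1 ranged from 0.909 to 0.997, the authors' value included, and that of Hnf4a from 0.25 to 0.37. Those of Foxa2 (-0.02 to 0.03) and Hhex (-0.03 to 0.02) took either sign. At a mean of 5 RPKM Hnf4a and Hhex were not measured. Over all genes the 1.5-fold counts were 619 higher and 324 lower with a pseudocount of 0.1 and 574 and 400 with scaling to equal sums. The 2-fold counts, 36 higher and 49 lower as reported, were 92 and 81 with a pseudocount of 0.1, 59 and 59 with 0.5, and 75 and 88 with scaling. The cause was not tested for any of these shifts. No paired analysis was possible because each group has 1 library. In the list of junction and mesenchymal genes set beside Foxq1, 3 were 1.5-fold lower, instead of 1, both with a pseudocount of 0.1 and with scaling. The 3 higher stayed 3 in both. Cldn6, its 1 gene 2-fold higher, fell to 0.97 with the median set to 0. The values of Foxa3 and Otx2 rest on few reads found, and their intervals are wide.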

Other observations

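Neither Hhex nor Otx2 passed 1.5-fold between the libraries, while 2 other homeobox genes expressed at low levels did. Of 29 listed homeobox and homeodomain genes 15 were measured, 10 above 0 and 5 below, with a median of 0.11. Over all genes tested, 58.0% were above 0. Esx1, an X-linked gene of trophoblast, measured 0.535 RPKM in control cells against 2.45 RPKM in depleted cells, 458% of control (373% to 566%). Pbx4, a partner of Hox proteins, stood at 0.719 and 1.92 RPKM, 267% of control (229% to 312%). These were the 2 genes of the list past 1.5-fold on the log2(RPKM + 1) scale, beside 3.42% of all genes higher and 1.95% lower by that size. Both reached a mean of 1 RPKM only through the depleted library, so they had to differ to be counted. Esx1 is also the 1 measured gene of the trophoblast markers, whose summed level is given above. At a mean of 5 RPKM neither was measured. Prox1 was at 165% and Pitx1 at 147% of control, both below 1.5-fold on that scale. Cdx2, a factor of trophoblast and hindgut, stood at 0.653 and 1.19 RPKM and did not reach the filter.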
